A study of Homo sapiens with 8 samples.

Results

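The subject is the transcriptome of H1703, an established cell line of human lung squamous cell carcinoma, grown attached and carrying a knockdown of luciferase as control. Its members are the 2 libraries labelled attached control, of 8 libraries in 4 groups in the study, and every level below is from these 2 libraries alone. Luciferase is not a human gene, so its knockdown controls for the delivery of a silencing reagent, whose sequence and vector no source used here gives. The labels give a note of floating for hours on all samples, the attached ones included, and the series speaks of biological repeats. No other group was drawn on and no test was made, since 1 group holds no contrast.

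Levels are FPKM (fragments per kilobase and per 1000000 mapped fragments), a scale corrected for length on which genes can be compared within a library. A gene or locus was called expressed at 1 FPKM or more in both libraries, near silent under 0.1 FPKM in both, and intermediate otherwise. Pairs of values are given in the order replicate 1, replicate 2. Squamous cancers of the lung arise from cells with the programme of stratified epithelium, in which the factors TP63 and SOX2 maintain basal cells and desmosomes and basal keratins hold the sheet together. Epithelial cells adhere to each other through E-cadherin, the product of CDH1, and to the matrix through integrins, which pair an alpha with a beta chain. Vimentin, N-cadherin and the factors ZEB1 and TWIST1 belong to the mesenchymal programme, which carcinoma cells can also express.

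Of 28590 loci, 12559 (43.9%) were expressed, 8632 (30.2%) intermediate and 7399 (25.9%) near silent, 4293 of them listed at 0 in both libraries. Of 23626 genes with a locus of their own, 10478 (44.3%) were expressed and 6794 (28.8%) near silent, and the median over these genes was 0.588 FPKM, the values against which the counts in each list can be read. FPKM summed to 732916 and 776025, and the low values put the depth of replicate 2 at 0.790 times that of replicate 1. Over the 13055 loci with a mean of 1 FPKM or more, the libraries differed by a median of 0.10 on the log2(FPKM + 1) scale. Differences over 2-fold were counted on FPKM without the added 1. They touched 0.351% of loci between 10 and 100 FPKM, 6.54% between 1 and 10 FPKM, and 43.6% between 0.1 and 1 FPKM. Single values below 1 FPKM therefore give an order of magnitude only. A chromosome M locus that joins 12 mitochondrial genes was listed at 0 in replicate 1 and at 47935 FPKM in replicate 2, and MT-ND6 at 0 and 1225. Mitochondrial levels are therefore not described. Small RNA, rRNA and mitochondrial loci made up 2.02% of the FPKM sum in replicate 1 and 7.33% in replicate 2. Here and below, these are loci whose symbols are all of such genes. A locus that joins the 28S rRNA gene RNA28S5 with AL592188.7, at 1517 and 1403 FPKM, is therefore not among them.

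**Figure D1:**
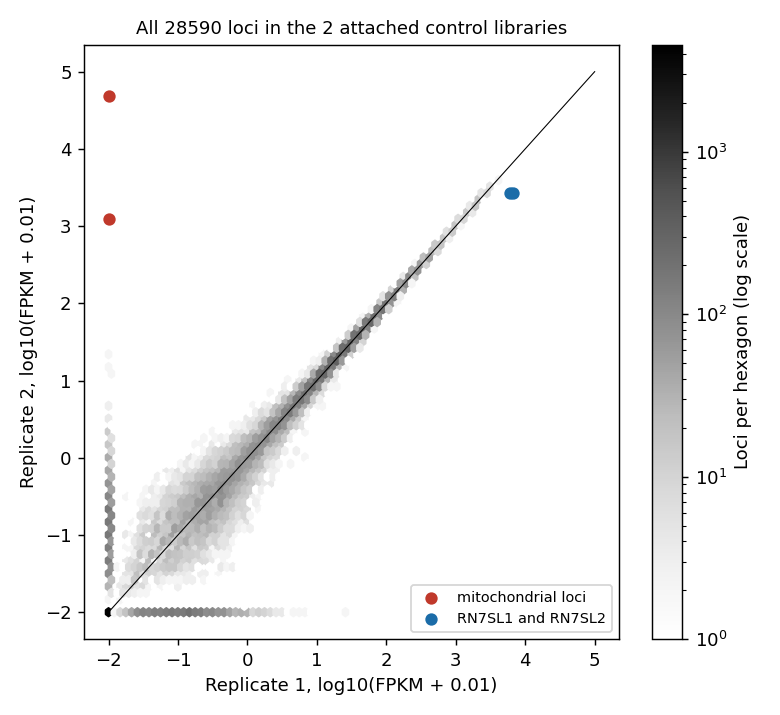
All 28590 loci, replicate 1 on the horizontal and replicate 2 on the vertical axis, both as log10(FPKM + 0.01), shaded by the number of loci per hexagon, with the line of equality. Loci lie close to the line above 10 FPKM and spread below 1 FPKM. Mitochondrial loci (red) stand at 0 in replicate 1, and RN7SL1 and RN7SL2 (blue), RNAs of the signal recognition particle, stand lower in replicate 2 (2709 and 2700 FPKM) than in replicate 1 (6130 and 6558 FPKM).

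The most abundant messages were those of translation, the actin cytoskeleton, glycolysis and protein folding. EEF1A1, the translation elongation factor that brings tRNA to the ribosome, had 6660 and 6766 FPKM. TMSB10, an actin monomer binding thymosin, had 4039 and 4205 FPKM. PPIA, the prolyl isomerase cyclophilin A, had 4088 and 4011 FPKM. Actin itself followed with ACTB at 3098 and 3022 FPKM and ACTG1 at 2640 and 2794 FPKM, and the actin binding profilin PFN1 had 2643 and 2599 FPKM. The glycolytic enolase ENO1 had 1893 and 1919 FPKM, and the chaperones HSP90AB1 and HSPA8 had 1875 and 1876 FPKM and 1878 and 1870 FPKM. The 100 most abundant loci held 28.6% of the FPKM sum in replicate 1 and 32.3% in replicate 2, and without small RNA, rRNA and mitochondrial loci 27.8% and 27.9%. Ribosomal protein loci were 56 of these 100, and pseudogenes or clone names 12. Pseudogenes such as EEF1A1P5, listed at 2976 and 2995 FPKM, are near-identical copies of active genes, so their values are uncertain. GAPDH lies in a locus shared with NCAPD2, at 5061 and 5096 FPKM.

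Several genes with narrower roles were also abundant, chosen here after their values were seen. LGALS1, the matrix and glycan binding galectin-1, had 2177 and 2097 FPKM. A locus named MACC1, known as a regulator of MET transcription in colon cancer, had 872 and 885 FPKM. It spans 19958604 to 20257027 on chromosome 7 (hg19), and whether its whole value belongs to this gene was not tested. NQO1 and TXNRD1, enzymes of the oxidative stress response, had 522 and 518 FPKM and, at its largest locus, 715 and 759 FPKM. CAV1, the coat protein of caveolae, had 443 and 434 FPKM. ALDH1A1, a retinaldehyde dehydrogenase, had 437 and 458 FPKM. All of these differed less than 2-fold between the libraries.

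Markers of the squamous programme that the label of the line implies were expressed in a smaller share than all genes. Of 30 squamous keratinocyte markers with a locus of their own, 8 were expressed (26.7%, against 44.3% of all genes). A further 13 were intermediate and 9 near silent (30%, near the 28.8% of all genes). The median of the 30 was 0.170 FPKM against 0.588 FPKM over all genes. TP63, the basal cell factor, had 0.0859 and 0.128 FPKM. DSG3, the desmoglein of basal keratinocytes, had 0.00821 and 0 FPKM. SOX2 reached 1.82 and 1.99 FPKM, above the limit but far from the abundant factors of these cells. PERP, a desmosomal membrane protein and target of p53, was the highest of the list at 84.8 and 85.0 FPKM, followed by the nectin gene PVRL1 at 13.6 and 13.9 FPKM. PITX1 (9.58 and 9.74 FPKM), KRT15 (8.76 and 6.37 FPKM) and KLF5 (2.56 and 2.95 FPKM) were also expressed. So was S100A2, at 5.90 and 4.44 FPKM at its largest locus. Several basal keratins share loci and cannot be split. KRT5 with KRT6A had 4.01 and 3.90 FPKM, KRT16 with KRT14 had 2.03 and 1.84 FPKM, and KRT17 with JUP, the gene of plakoglobin, 33.0 and 32.8 FPKM. The defining markers TP63, which was intermediate, and DSG3, near silent, thus go against the squamous label, while SOX2 and other members were expressed. The label is kept here as the name of the line.

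General epithelial genes gave a mixed picture. Of 31, 8 were expressed (25.8%, against 44.3% of all genes) and 4 near silent (12.9%, against 28.8%), with a median of 0.189 FPKM. Simple epithelial keratins were present, with KRT18 at 75.1 and 83.5 FPKM and its partner KRT8 at 16.9 and 16.8 FPKM. The desmosomal genes DSP and DSG2 had 13.7 and 14.5 FPKM and 10.9 and 11.9 FPKM. In contrast EPCAM, an adhesion molecule of nearly all epithelia, had 0 and 0.108 FPKM, and CDH1 had 0.123 and 0.225 FPKM. The epithelial splicing factor ESRP1 (0.111 and 0.0156 FPKM) and the epithelial transcription factor GRHL2 (0.0466 and 0.0110 FPKM) were also low. Across the whole keratin family 7 of 32 genes were expressed (21.9%, against 44.3% of all genes) and 19 near silent (59.4%, against 28.8%).

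Of 39 mesenchymal genes, 22 were expressed (56.4%, against 44.3% of all genes) and 9 near silent (23.1%, against 28.8%), with a median of 2.71 FPKM. The difference between lists was not tested. VIM, the intermediate filament vimentin (chromosome 10, 17266540 to 17279595, hg19), had 2424 and 2402 FPKM (mean 2413 ± 15.2, SD, n = 2) and ranked 19 among the 23626 genes. COL5A2, a fibrillar collagen chain, had 282 and 281 FPKM, and THY1, a surface glycoprotein of fibroblasts, 121 and 138 FPKM. The repressors of CDH1 were unequal, with ZEB1 at 22.8 and 23.4 FPKM, TWIST1 at 10.2 and 10.3 FPKM, SNAI1 at 7.43 and 6.47 FPKM, and SNAI2 at 0.0941 and 0.179 FPKM. The programme was not complete. Fibronectin, FN1, stood at 3.11 and 2.92 FPKM, and SPARC, a matrix glycoprotein of mesenchyme, at 0.231 and 0.203 FPKM. The fibroblast proteoglycans DCN and LUM and the factor PRRX1 were listed at 0 in both libraries. CD44, a hyaluronan receptor often high in mesenchymal cancer cells, had 0.435 and 0.795 FPKM. In bulk RNA, fewer cells of a kind and less RNA per cell cannot be told apart, so a low level does not say whether few cells or all cells carried it.

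**Figure D2:**
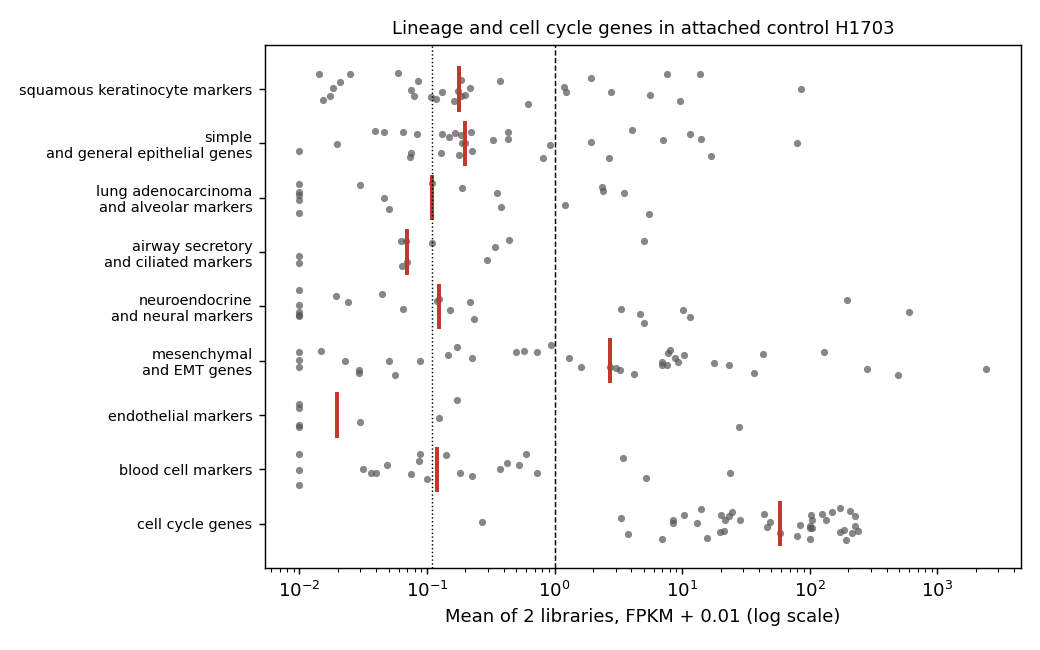
Mean FPKM + 0.01 of the 2 libraries on a log axis for each gene with a locus of its own (points; loci of the same gene summed), in 9 lists, with the median of each list in red. The dashed line marks 1 FPKM and the dotted line 0.1 FPKM. Mesenchymal genes (median 2.71 FPKM) and cell cycle genes (median 58.7 FPKM) have their medians right of the dashed line, and the other 7 lists left of it.

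Markers of other lineages were also expressed in smaller shares than the 44.3% of all genes. Of 17 markers of alveolar cells and lung adenocarcinoma, 3 were expressed (17.6%) and 8 near silent (47.1%, against 28.8% of all genes). NKX2-1, the lung lineage factor, lies in a locus shared with SFTA3 at 0.506 and 0.913 FPKM, and NAPSA, an aspartic protease of adenocarcinoma, had 0.204 and 0.532 FPKM. The surfactant gene SFTPB had 0.0393 and 0 FPKM. Of 11 airway genes only MCIDAS (9.09%), a regulator of multiciliated cells, was expressed, at 4.46 and 4.58 FPKM at its largest locus. Among 21 neuroendocrine and neural genes 7 were expressed (33.3%, beside 26.7% of squamous markers). They were led by UCHL1, a neuronal deubiquitinase, at 603 and 595 FPKM, and the neuronal intermediate filament INA at 200 and 193 FPKM. SYT1 (14.2 and 8.71 FPKM), DLL3 (5.44 and 4.56 FPKM) and CHGB (3.09 and 3.55 FPKM) were also expressed. So was SYP, at 3.89 and 4.41 FPKM at its largest locus. Of the 21 genes, 6 were intermediate and 8 near silent (38.1%, against 28.8% of all genes). The factor INSM1 was listed at 0 in both libraries, and the granule protein CHGA had 0.0650 and 0.165 FPKM.

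Markers of cells that a pure culture should lack were mostly low. Of 22 blood cell genes 3 were expressed (13.6%, against 44.3% of all genes), and their summed level was 31.8 and 39.5 FPKM. Most of that sum came from CORO1A, an actin regulator of leukocytes that other cells can express, at 21.6 and 25.6 FPKM. The other 2 expressed members were myeloid markers, CSF1R, a receptor of macrophage growth factors, at 4.78 and 5.56 FPKM at its largest locus and the integrin chain ITGAM at 3.98 and 2.82 FPKM. PTPRC, the pan-leukocyte marker CD45, had 0.0397 and 0.116 FPKM, and the globin HBB was listed at 0. Of 8 endothelial genes 1 was expressed (12.5%), EGFL7 at 28.2 and 27.3 FPKM, while TIE1 and TEK, receptors of endothelium, were listed at 0. PECAM1 was not analysed here.

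Nearly all proliferation genes were expressed. Of 41 cell cycle genes 40 were expressed (97.6%, against 44.3% of all genes), with a median of 58.7 FPKM. CDKN1C, an inhibitor of cyclin-dependent kinases, was the exception. RRM2, a ribonucleotide reductase subunit, had 238 and 237 FPKM, CCNB1, the mitotic cyclin B1, had 231 and 223 FPKM, and MCM7, of the replicative helicase, 180 and 188 FPKM. CDKN2A, which encodes the cell cycle inhibitor p16 and the p53 regulator ARF, had 234 and 216 FPKM.

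Receptor tyrosine kinases, which carry growth factor signals across the membrane, were unevenly expressed. Of 50 with a locus of their own, 27 were expressed (54.0%, against 44.3% of all genes), 13 intermediate and 10 near silent, with a median of 1.31 FPKM. FGFR1, a fibroblast growth factor receptor (chromosome 8, 38257657 to 38326352, hg19), was first with 313 and 330 FPKM (mean 321 ± 11.8, SD, n = 2) and ranked 248 among all genes. With each gene taken at its largest locus, EPHA2, an ephrin receptor, followed at 92.2 and 90.1 FPKM, clearly below it. EGFR, the epidermal growth factor receptor, had 57.6 and 58.8 FPKM at its largest locus. EPHB4 (44.6 and 49.5 FPKM), RYK, a WNT co-receptor (40.8 and 40.4 FPKM at its largest locus), MET, the hepatocyte growth factor receptor (40.5 and 35.6 FPKM), and ERBB2 (31.6 and 35.2 FPKM) came next. Among these 4 the ranges over the libraries overlapped between RYK and MET, so that pair has no order.

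Members of the same receptor family stood far apart. FGFR3 had 9.59 and 9.35 FPKM at its largest locus, FGFR4 8.21 and 8.32 FPKM, and FGFR2 1.31 and 0.846 FPKM, all far under FGFR1. PDGFRA, a platelet-derived growth factor receptor, lies in a locus shared with FIP1L1, a gene of messenger RNA 3' end processing, at 172 and 169 FPKM, and its part cannot be split off. Its relative PDGFRB had 0.257 and 0.336 FPKM, and KIT, the stem cell factor receptor, 0.0134 and 0.114 FPKM. AXL, a receptor linked to mesenchymal states, was intermediate at 0.293 and 0.830 FPKM, while its relatives TYRO3 (10.7 and 11.5 FPKM) and MERTK (5.87 and 5.40 FPKM) were expressed. FLT4, the receptor for VEGFC on lymphatic endothelium, had 15.9 and 18.2 FPKM, against 0.0260 and 0.0329 FPKM for FLT1. The neurotrophin receptor NTRK3 and the angiopoietin receptors TEK and TIE1 were listed at 0 in both libraries. ERBB3 shares a locus with PA2G4 and a ribosomal protein gene, and its value is not given.

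**Figure D3:**
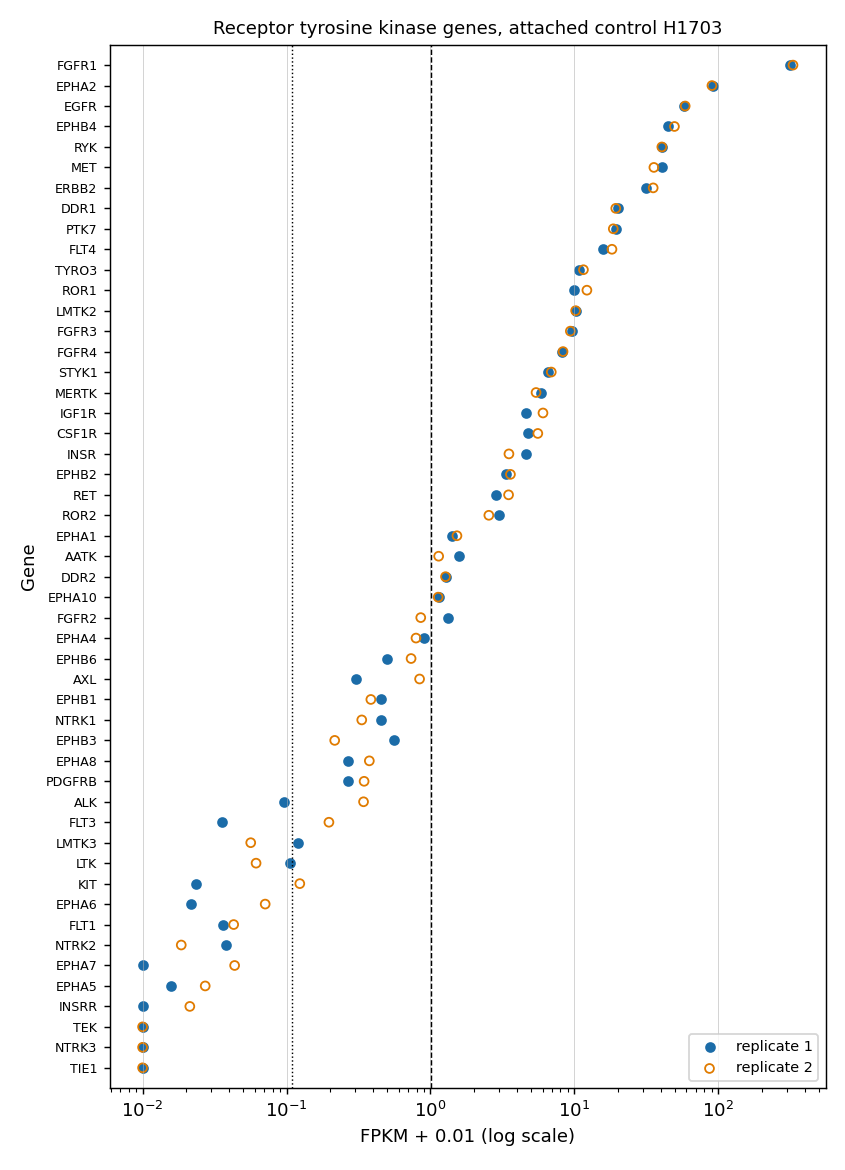
FPKM + 0.01 on a log axis of the 50 receptor tyrosine kinase genes with a locus of their own, at the largest locus of each, in replicate 1 (blue, filled) and replicate 2 (orange, open), in order of the mean. The dashed line marks 1 FPKM and the dotted line 0.1 FPKM. FGFR1 stands alone at 313 and 330 FPKM, 3 genes (TEK, NTRK3, TIE1) lie at 0 in both libraries, and the libraries part from each other mainly below 1 FPKM.

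Of 53 ligands of these receptors 20 were expressed (37.7%, against 44.3% of all genes), with a median of 0.654 FPKM, close to the 0.588 FPKM of all genes. Platelet-derived growth factors led, with PDGFC at 164 and 162 FPKM at its largest locus and PDGFB at 79.3 and 83.7 FPKM. VEGFA, the endothelial growth factor, had 52.8 and 47.5 FPKM. HBEGF, a ligand of EGFR, had 31.5 and 28.0 FPKM, and FGF2, a ligand of FGFR1, 28.8 and 28.6 FPKM. Ligands and receptors of the same pathway were thus both present for the fibroblast growth factor and epidermal growth factor systems, as RNA.

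Genes next to FGFR1 and to PDGFRA on the chromosome were examined because both regions are amplified in some lung cancers. DNA copy number was not measured. Of 14 listed neighbours of FGFR1 on chromosome arm 8p with a locus of their own, 13 were expressed, against 44.3% of all genes. Their median was 51.9 FPKM, with 5 at 100 FPKM or more. EIF4EBP1, a repressor of cap-dependent translation, had 356 and 350 FPKM, and TM2D2, a membrane protein gene, 308 and 303 FPKM. LSM1, of messenger RNA decay, had 160 and 155 FPKM, and TACC1, a centrosomal protein gene, 117 and 106 FPKM. Low members lay among them, with ZNF703 at 1.38 and 1.63 FPKM and STAR, the steroidogenic cholesterol transporter, at 0.340 and 0.119 FPKM at its largest locus. On arm 4q, 6 of 8 neighbours were expressed (75%), with a median of 10.1 FPKM and none at 100 FPKM or more. CHIC2, next to PDGFRA, had 15.8 and 14.3 FPKM, and TMEM165, a Golgi membrane protein gene, 40.7 and 39.7 FPKM.

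Among transforming growth factor beta and BMP genes, 16 of 38 were expressed (42.1%, near the 44.3% of all genes). The highest members were receptors, TGFBR2 at 48.8 and 51.0 FPKM and BMPR1A at 27.0 and 23.8 FPKM. Of the ligands BMP7 had 18.8 and 21.5 FPKM, while BMP2 was listed at 0 in both libraries. In the Notch, WNT and Hedgehog list 19 of 40 were expressed (47.5%, near the 44.3% of all genes). WNT5B, a WNT of the non-canonical branch, had 76.7 and 72.6 FPKM, NOTCH2 had 43.1 and 42.1 FPKM, and LRP6, a WNT co-receptor, 31.1 and 21.1 FPKM. The Notch ligand JAG1 stood at 0.121 and 0.0955 FPKM, and LGR5, a receptor of stem cells, was near silent at 0.0113 and 0.0251 FPKM.

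Cytokine and death receptors were expressed in 29 of 53 cases (54.7%, against 44.3% of all genes). TNFRSF1A, the main receptor for tumour necrosis factor, had 167 and 147 FPKM, IL6ST, the shared chain gp130, 69.5 and 72.7 FPKM, and OSMR, which pairs with it for oncostatin M, 57.9 and 57.8 FPKM. The death receptors TNFRSF10B and TNFRSF10A, which bind TRAIL, had 21.3 and 20.0 FPKM and 10.7 and 10.2 FPKM. Toll-like receptors were low, with TLR3 at 2.24 and 1.42 FPKM and TLR4 at 0 and 0.0220 FPKM.

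G protein-coupled receptors were expressed in 27 of 99 cases (27.3%, against 44.3% of all genes). They were near silent in 41 (41.4%, against 28.8%), 17 of them at 0 in both libraries. Adhesion receptors of this class led the list. GPR126, which binds collagen IV, had 90.9 and 79.6 FPKM, LPHN2, a latrophilin, 54.2 and 58.6 FPKM, and CD97, a receptor for CD55, 47.0 and 45.3 FPKM. S1PR1, a receptor for sphingosine phosphate, had 28.9 and 32.1 FPKM, and ADORA2B, an adenosine receptor, 30.2 and 28.2 FPKM. The chemokine receptor CXCR4 had 0.105 and 0.153 FPKM. Of the 60 olfactory receptors none was expressed in both libraries and 48 (80.0%) were near silent. Nuclear receptors were expressed in 20 of 40 cases (50%, against 44.3% of all genes). NR2F1, an orphan receptor of the COUP-TF type, led them at 68.8 and 64.4 FPKM. The glucocorticoid receptor NR3C1 had 13.0 and 11.6 FPKM. The oestrogen receptor ESR1 was near silent at 0.0579 and 0.0423 FPKM.

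Integrins, the receptors by which attached cells hold the matrix, varied widely in level. Of 20 subunits with a locus of their own 9 were expressed (45.0%, near the 44.3% of all genes), 7 intermediate and 4 near silent. ITGB1, the beta chain shared by most collagen, laminin and fibronectin receptors (chromosome 10, 33176189 to 33294720, hg19), had 342 and 360 FPKM (mean 351 ± 12.5, SD, n = 2). ITGB5, which pairs with the alpha v chain, had 123 and 124 FPKM, and that chain, ITGAV, 92.7 and 81.0 FPKM. ITGA6, of laminin receptors, had 111 and 115 FPKM, and ITGA5, of the fibronectin receptor, 30.3 and 31.5 FPKM. ITGA3, also of laminin receptors, shares a locus with the kinase gene PDK2 at 142 and 140 FPKM. ITGB4, the hemidesmosomal partner of ITGA6, was intermediate at 0.970 and 1.06 FPKM, and ITGB6 was near silent at 0.0212 and 0.0243 FPKM. ITGB8 and ITGA8 were listed at 0 in both libraries. ITGAE, at 1.62 and 1.65 FPKM, is uncertain, since a locus that it shares with C17orf85 had 69.9 and 67.4 FPKM.

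Of 39 matrix genes that integrins can bind, 22 were expressed (56.4%, against 44.3% of all genes). Below COL5A2 stood CTGF and CYR61, matricellular proteins and targets of the coactivator YAP, at 70.7 and 71.9 FPKM and at 72.8 and 64.5 FPKM. Laminin chains followed, with LAMA5 at 65.8 and 60.8 FPKM and LAMC1 at 61.4 and 57.7 FPKM. The laminin chains LAMB3 and LAMA3 were lower, at 2.11 and 2.48 FPKM and at 0.612 and 0.581 FPKM. Tenascin C, TNC, was near silent at 0.00922 and 0 FPKM.

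Of 18 genes whose symbol is CDH and a number, 5 were expressed, 5 intermediate and 8 near silent. Over all genes 44.3% were expressed and 28.8% near silent. CDH18, a type II cadherin of the nervous system, had 11 and 9.82 FPKM, and CDH2, N-cadherin, 8.78 and 9.78 FPKM, ranges that nearly meet. CDH1 lay far below both, and CDH3, P-cadherin of basal epithelia, had 0.240 and 0.192 FPKM. The catenins that tie cadherins to actin were abundant all the same, with CTNNA1 at 267 and 296 FPKM and CTNNB1 at 167 and 164 FPKM. In the list of claudins and other tight junction genes 5 of 22 were expressed (22.7%, against 44.3% of all genes). These were CXADR at 49.3 and 48.8 FPKM, TJP1 at 31.3 and 31.4 FPKM and JAM3 at 35.5 and 27.0 FPKM. The others were CLDN1 at 27.8 and 27.5 FPKM and CGN at 5.20 and 6.19 FPKM. No other claudin with a locus of its own reached 1 FPKM in both libraries. Of 44 immunoglobulin-like and other adhesion molecules 29 were expressed (65.9%, against 44.3% of all genes). BSG, basigin, an inducer of matrix metalloproteinases, had 383 and 374 FPKM, MCAM, a melanoma cell adhesion molecule, 108 and 99.5 FPKM, and ICAM1, the ligand of leukocyte integrins, 0.0433 and 0.164 FPKM.

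**Figure D4:**
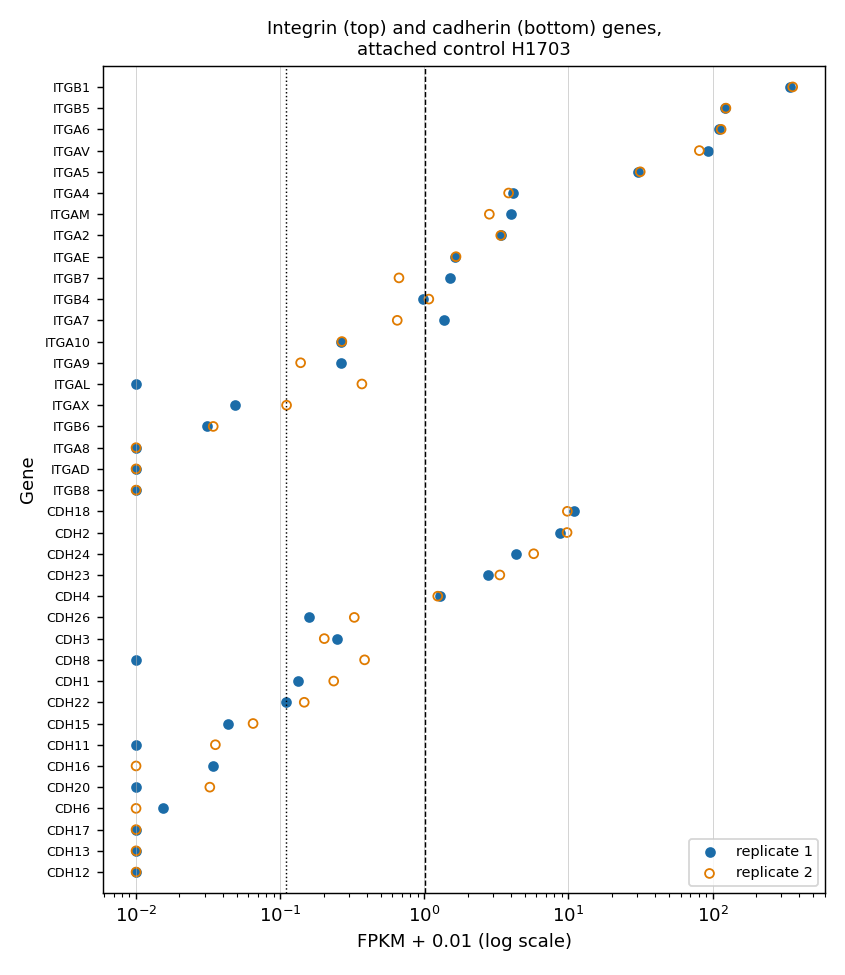
FPKM + 0.01 on a log axis of 20 integrin subunit genes (upper block) and 18 cadherin genes (lower block), in replicate 1 (blue, filled) and replicate 2 (orange, open), in order of the mean within each block. The dashed line marks 1 FPKM and the dotted line 0.1 FPKM. ITGB1, ITGB5 and ITGA6 lie above 100 FPKM in both libraries, while no cadherin exceeds 11 FPKM.

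Shares of transcription factor families are given beside the 44.3% of all genes that were expressed, and no difference was tested. ETS factors, the family of SPIB, were expressed in 13 of 22 cases (59.1%). ETS1 led with 182 and 190 FPKM, followed by ELF4 at 46.2 and 46.9 FPKM, ELK1 at 34.9 and 40.3 FPKM, ELK3 at 33.3 and 35.4 FPKM and ETV4 at 30.1 and 30.1 FPKM. The epithelial members EHF (0.121 and 0.235 FPKM) and ELF3 (0.214 and 0.0956 FPKM) and the closest relative of SPIB, the myeloid factor SPI1 (0 and 0.0525 FPKM), were low. SPIB itself shares a locus with POLD1, a DNA polymerase gene, and its level cannot be given. Among SOX and other HMG factors 9 of 21 were expressed (42.9%, near the share of all genes). The chromatin proteins HMGA1 (925 and 935 FPKM) and HMGA2 (111 and 111 FPKM), known from embryonic and cancer cells, stood far above the first SOX gene, SOX12, at 15.6 and 15.4 FPKM. Of 34 forkhead factors 15 were expressed (44.1%, near the share of all genes). They were led by FOXK2 at 46.8 and 50.6 FPKM and FOXD1, a factor of stromal development, at 36.5 and 37.3 FPKM. The lung endoderm factor FOXA2 was listed at 0.

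Homeobox and related developmental factors were expressed in 44 of 80 cases (55%, against 44.3% of all genes). Levels were mostly low, with a median of 1.48 FPKM and 8 at 10 FPKM or more. LHX2, of brain and hair follicle development, had 33.3 and 30.9 FPKM, NKX2-5, a heart factor, 24.9 and 25.7 FPKM, and GATA2, of blood and vessel development, 22.0 and 20.4 FPKM. HOX genes, which mark position along the body axis, lie in clusters whose members often share a locus, and 21 of 39 could not be split. A locus of HOXC4 to HOXC10 had 68.3 and 74.9 FPKM and one of HOXA3 to HOXA6 18.0 and 17.8 FPKM, while that of HOXA9 and HOXA10 was listed at 0. Of the 16 HOX genes with a locus of their own 6 were expressed (37.5%, against 44.3% of all genes). The highest means were those of HOXD9 at 5.22 and 3.99 FPKM and HOXD8 at 4.27 and 4.37 FPKM, ranges that overlap.

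Basic helix-loop-helix and EMT factors were expressed in 29 of 48 cases (60.4%, against 44.3% of all genes). They were led by the inhibitors of differentiation ID3 (194 and 190 FPKM) and ID1 (117 and 105 FPKM). MYC had 90.6 and 87.0 FPKM, and MYCN was listed at 0. Factors that respond to signals were expressed in 76 of 96 cases, or 79.2%, and zinc finger genes with a ZNF symbol in 298 of 377, or 79.0%, with a median of 4.21 FPKM. The other lists of transcription factors lay between 37.5% and 60.4%. Among the factors that respond to signals ATF4, of the integrated stress response, had 283 and 260 FPKM, NFE2L1, a regulator of proteasome genes, 195 and 205 FPKM, NFKB2 155 and 141 FPKM, STAT3 136 and 134 FPKM and TEAD4, the DNA binding partner of YAP1, 134 and 132 FPKM.

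Of 23 subunits of the SWI/SNF chromatin remodeller, 20 were expressed (87.0%, against 44.3% of all genes). The ATPases differed, with SMARCA4 at 21.5 and 25.1 FPKM and SMARCA2 at 0.676 and 0.755 FPKM. Core subunits were higher, with SMARCC1 at 79.6 and 76.2 FPKM, SMARCB1 at 66.5 and 67.2 FPKM and ACTL6A at 179 and 174 FPKM. ACTL6B, the neuronal counterpart of ACTL6A, was listed at 0 in both libraries. An RNA level does not measure the protein.

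Cancer-testis antigens are genes of the germ line that tumours can express. Of 35 in the list, 14 were not found under their symbol and 2 lay only in merged loci. Of the other 19, 10 were expressed (52.6%, against 44.3% of all genes). MAGEA4 had 614 and 625 FPKM at its largest locus, which placed it at rank 126, and MAGEA1 had 245 and 257 FPKM. Reads of the near-identical copies MAGEA3 (37.7 and 38.4 FPKM), MAGEA6 (76.4 and 79.9 FPKM) and CTAG1B (106 and 96.6 FPKM) can be shared with other copies, so these values are uncertain. PRAME had 39.2 and 39.3 FPKM, while MAGEC1 and MAGEC2 were listed at 0. In antigen presentation, B2M, the light chain of class I molecules, had 703 and 729 FPKM. The checkpoint ligand CD274 had 0.425 and 0.441 FPKM, and the peptide transporter TAP1 0.498 and 0.234 FPKM at its largest locus, while its partner TAP2 had 20.2 and 20.4 FPKM, also at its largest locus. TAP1 and TAP2 are listed on chromosome 6 and on its alternative haplotypes, and reads may be counted at several of these loci, so the level may lie between the largest locus and the sum.

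Promoter sequence differed by level of expression. RefSeq promoters (GRCh38.p14, from 250 bases before to 50 after the start, the first listed for each gene) were matched to 11050 of 13398 protein-coding genes (82.5%). The promoter set holds no chromosome 8, whose genes were left out, and with them protein-coding genes numbered 13894. The dinucleotide CG is depleted from most of the genome and kept in the CpG islands of many promoters. A ratio of observed over expected CG of at least 0.6, the usual limit for such islands, was met by 35.8% of promoters of near silent genes and by 52.4% of intermediate ones. It was met by 81.8% at 1 to 10 FPKM, 89.8% at 10 to 100 FPKM, 90.5% at 100 to 1000 FPKM and 90.4% (47 of 52) at 1000 FPKM and over. The share thus differed most between unexpressed and expressed genes and little among the upper levels. Of all matched promoters 73.5% passed the limit. Of the 22 squamous markers matched, 6 passed it, and of the 31 cell cycle genes 29 did.

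Short motifs were searched on both strands of the same windows, and none of the 4 contains another, though they can share end bases. TATAAA, the letters of the TATA box, stood in 7.64% of all promoters, in 14.6% of those of near silent genes, in 4.26% of those at 10 to 100 FPKM and in 17.3% of those at 1000 FPKM and over, a class of 52 genes. CCGGAA, which holds the GGAA core of ETS sites, stood in 24.3% of all promoters, in 9.41% of those of near silent genes and in 33.3% of those at 10 to 100 FPKM. GGGCGG, the letters of the GC box, stood in 64.7% of all promoters, in 40.3% of those of near silent genes and in 74.4% of those at 10 to 100 FPKM. CCAAT varied less, from 33.0% in intermediate genes to 42.0% at 100 to 1000 FPKM. CCGGAA and GGGCGG each hold a CG, while TATAAA and CCAAT hold none. The median number of CG per window was 8 in near silent genes and 28 at 10 to 100 FPKM. Whether the shares of CCGGAA and GGGCGG differed by level beyond this difference in CG was not tested. A match of letters is not a bound site.

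As examples serve the 250 bases before the start of 4 genes described above, an abundant and a moderately expressed mesenchymal gene and a near silent squamous and alveolar gene, with each CG in capitals.
VIM: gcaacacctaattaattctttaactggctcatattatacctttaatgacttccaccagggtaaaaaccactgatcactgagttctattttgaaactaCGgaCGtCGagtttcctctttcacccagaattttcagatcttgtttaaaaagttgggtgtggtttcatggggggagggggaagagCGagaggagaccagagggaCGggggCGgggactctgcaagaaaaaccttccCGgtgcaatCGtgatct
CDH2: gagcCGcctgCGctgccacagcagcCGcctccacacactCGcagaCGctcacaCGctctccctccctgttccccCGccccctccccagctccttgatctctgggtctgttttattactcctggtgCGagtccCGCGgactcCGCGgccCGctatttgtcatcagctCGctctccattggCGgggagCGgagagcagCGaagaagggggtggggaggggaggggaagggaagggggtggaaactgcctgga
DSG3: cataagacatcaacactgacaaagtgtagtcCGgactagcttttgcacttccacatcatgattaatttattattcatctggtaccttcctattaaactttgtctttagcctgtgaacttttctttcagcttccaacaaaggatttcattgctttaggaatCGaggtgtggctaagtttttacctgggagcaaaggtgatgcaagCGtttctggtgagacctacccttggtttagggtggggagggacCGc
SFTPB: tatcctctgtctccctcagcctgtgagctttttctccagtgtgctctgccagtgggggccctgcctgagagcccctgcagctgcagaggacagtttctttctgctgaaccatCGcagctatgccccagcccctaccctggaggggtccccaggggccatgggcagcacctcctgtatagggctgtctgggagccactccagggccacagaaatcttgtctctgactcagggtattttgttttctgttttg
They lie at chr10:17227991-17228240 (plus strand), chr18:28177131-28177380 (minus), chr18:31447491-31447740 (plus) and chr2:85668742-85668991 (minus) of GRCh38.p14. The stretches hold 8 CG in VIM, 17 in CDH2, 4 in DSG3 and 1 in SFTPB. Over the 300 base window the ratio of observed over expected CG was 0.584 for VIM, 0.687 for CDH2, 0.414 for DSG3 and 0.0444 for SFTPB. VIM, at 2424 and 2402 FPKM, stood just under the limit of 0.6. CDH1 and EPCAM are not shown.

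**Figure D5:**
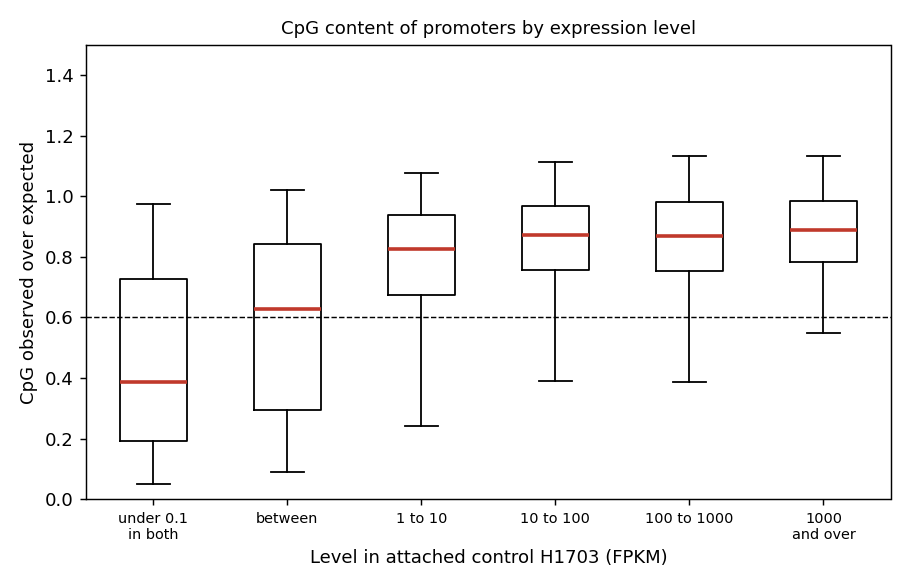
Ratio of observed over expected CG in the 300 base promoter windows of 11050 protein-coding genes, by level in attached control H1703 (boxes: quartiles and median in red; whiskers: 5th to 95th percentile). The dashed line marks 0.6. The median was 0.386 in near silent genes and between 0.825 and 0.889 in the 4 classes at 1 FPKM or more.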

How the data were processed

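The data are RNA sequencing of the 2 attached libraries of H1703 with luciferase knockdown. The authors deposited 1 table of FPKM values per locus for each of them. The submitters' processing notes name the aligner HISAT, the normalizer Cuffnorm and build hg19; no source used here gives versions, gene annotation or strandedness. Values were read with Python 3.11.15, pandas 2.3.3 and numpy 2.4.6. Of 28590 loci, 1673 have no symbol and 1961 (6.86%) join several genes, whose value cannot be split. Genes found only in such loci were left out of counts, as were list members not found under their symbol at any locus. Loci of 1 symbol were summed for counts, and values printed for a gene with several loci are those of its largest. For 24 genes repeated on chromosome 6 haplotypes, a haplotype locus had a median of 0.875 times the level of the chromosome 6 locus.

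FPKM values hold no read totals, so the absolute depth is unknown, and no interval for counting error could be given. Where annotation of antisense or overlapping genes divides reads is also not known.

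The 33 gene lists and 29 families, the thresholds and the genes named were chosen with earlier results of these data known. The rule for named genes took the 30 highest loci, the 5 highest members of each list, any receptor tyrosine kinase, integrin, cadherin, SWI/SNF or HOX gene and neighbour, and defining lineage markers; other genes named here were chosen after their values were seen. The class calls were tested on simulated data of an assumed depth, only for levels well away from the thresholds. Calls close to 1 or 0.1 FPKM were not tested. Differences between libraries were tested on the same data, at 10 FPKM or more. Alternatives were other thresholds, rescaling to TPM, each library divided by its FPKM sum, treatment of merged and repeated loci, and each library alone. A few genes within the rule are not reported.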

Additional observations from a re-analysis of the deposited data

How the results depend on the processing

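The counts at 1 FPKM or more over all loci stayed within 1.5 times of the value reported under each alternative run (10968 to 13945). Near silent loci numbered 4293 if 0 in both libraries was required and 12940 under 0.5 FPKM. Counting genes in merged loci at the value of the whole locus raised the expressed members to 13 for squamous markers, 15 for epithelial genes, 2 for airway genes, 11 for neuroendocrine genes, 3 for endothelial genes, 7 for blood cell genes, 31 for receptor tyrosine kinase ligands, 12 for claudins and tight junction genes and 21 for HOX genes; since the value belongs to several genes, these are upper limits. Expressed alveolar genes numbered 5 at 0.5 FPKM and 5 on the TPM scale, with or without small RNA, rRNA and mitochondrial loci, and 2 HOX genes passed 2 FPKM. With 1 library alone, alveolar genes numbered 3 to 5 and blood cell genes 3 to 5, the higher value being that of replicate 2 in each. The other lists stayed within 1.5 times of their counts under the alternatives run. The lower depth of replicate 2 and the unknown read totals limit values under 1 FPKM. No paired analysis was possible because a single group was described and no test was made.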

Other observations

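A locus named KHDC3L, an oocyte gene, was among the 10 most abundant, at 3080 and 3030 FPKM (chromosome 6, 74054610 to 74083041, hg19). Whether the value belongs to this gene was not tested. Among solute carriers 170 of 317 were expressed (53.6%, against 44.3% of all genes). SLC25A5, the mitochondrial carrier of ADP and ATP, led them at 650 and 649 FPKM. Of 73 potassium channel genes 18 were expressed (24.7%). KCNMA1, the large conductance calcium-activated channel, had 226 and 216 FPKM and the next, KCNN4, 28.6 and 28.6 FPKM. Of 37 cytochrome P450 genes 4 were expressed (10.8%), none above CYP20A1 at 4.52 and 5.76 FPKM. Of 23 chemokines 7 were expressed (30.4%), led by CCL2, which attracts monocytes, at 68.1 and 61.6 FPKM. Of 52 mitochondrial ribosomal protein genes 52 were expressed, and of 33 proteasome subunit genes 32. The hair keratin-associated genes KRTAP2-3 and KRTAP2-4, near-identical copies and therefore uncertain, stood at 14.0 and 23.0 FPKM and at 2.74 and 3.77 FPKM. Of 22 genes of that family 17 were near silent (77.3%, against 28.8% of all genes).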
